A study of Homo sapiens with 24 samples.

Results

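The genes described here encode extracellular matrix proteins and integrins, 47 genes in 4 classes. There were 15 genes of the basement membrane, 17 of the interstitial matrix, 4 cell surface proteoglycans and 11 integrin subunits. A probe set (a group of short probes that read 1 transcript) belonged to a member when the array's annotation gave that gene symbol and no other. By this rule 44 of the 47 members had a probe set, and 41 had at least 1 probe set that passed a filter on low values and was tested, out of 12010 genes tested in all. Members were named by symbol, with earlier results of these data known.

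RWPE1 is a line of immortalized, non-tumorigenic human prostate epithelial cells. Cultures received 1,25(OH)2D at 100 nM (the active hormone made from vitamin D) or its vehicle (0.1% ethanol) and were harvested after 6, 24 or 48 h. Each of the 6 treatment-by-time groups had 4 samples that the labels call biological replicates, each on an Affymetrix U133 Plus 2.0 array, 24 arrays in total. The cultures kept for 48 h received new medium at 24 h. No other allele, vector or agent distinguished the groups, and all arrays come from this single line, so the spread between arrays is a spread between cultures of 1 line.

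Epithelial cells rest on a basement membrane, a sheet in which laminin trimers and type IV collagen form networks that nidogen, perlecan and agrin bind together. The interstitial matrix lies beneath it and holds fibrillar collagens, fibronectin, fibrillins and small matricellular proteins, with lysyl oxidases crosslinking collagen and elastin. Integrins are heterodimers of an alpha and a beta subunit that bind these ligands and connect them to actin, or, in the case of alpha6beta4, to keratin filaments at hemidesmosomes, while syndecans and glypicans carry heparan sulfate chains that bind matrix proteins and growth factors.

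Sequences in front of the start sites of 5 members are given because the values that follow turn on these genes: LAMB3 rose at 6 h, FN1 and CCDC80 fell at 24 h and 48 h, and COL4A1 and COL4A2 are neighbours whose values can be set side by side. They come from RefSeq (GRCh38.p14) and end 1 base before the annotated start, 5′ to 3′ on the strand of the gene. The 250 bases before a LAMB3 start at chr1:209651375-209651624 (minus strand) hold an AP-1 motif (TGANTCA), shown in capitals, at positions -67 to -61 relative to the start. RefSeq annotates 3 LAMB3 starts, and the motif lay in the window of 1 of them.

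LAMB3: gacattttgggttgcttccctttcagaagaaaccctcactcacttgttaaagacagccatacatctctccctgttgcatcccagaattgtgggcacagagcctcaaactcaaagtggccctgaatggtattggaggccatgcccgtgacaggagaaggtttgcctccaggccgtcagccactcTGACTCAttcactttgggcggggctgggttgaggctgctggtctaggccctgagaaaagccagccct

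In FN1 the capitals mark a cyclic AMP response element (TGACGTCA) at positions -183 to -176 (chr2:215436069-215436318, minus strand). In CCDC80 they mark the only 1 of the motifs searched that its window held, a single vitamin D receptor half-site (chr3:112641144-112641393, minus strand). G and C made up 76.4% of the FN1 stretch, 42% of the CCDC80 stretch and 54% of the LAMB3 stretch, against a median of 58% over all windows.

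FN1: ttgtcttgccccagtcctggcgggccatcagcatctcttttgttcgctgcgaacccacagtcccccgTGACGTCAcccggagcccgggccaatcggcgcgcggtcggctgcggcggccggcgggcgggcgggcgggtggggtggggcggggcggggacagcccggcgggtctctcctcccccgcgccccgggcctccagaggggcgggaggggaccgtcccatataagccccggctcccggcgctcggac
CCDC80: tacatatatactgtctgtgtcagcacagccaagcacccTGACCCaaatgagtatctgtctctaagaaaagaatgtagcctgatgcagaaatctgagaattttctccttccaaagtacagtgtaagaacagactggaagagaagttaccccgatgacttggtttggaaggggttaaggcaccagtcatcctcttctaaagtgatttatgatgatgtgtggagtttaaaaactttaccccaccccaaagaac

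COL4A1 and COL4A2 encode the chains of the common type IV collagen and are transcribed away from each other. Only 126 bases lay between their annotated starts (chr13:110307158-110307283, written on the strand of COL4A2), with 1 Sp1 motif (GGGCGG, capitals).

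COL4A1 and COL4A2: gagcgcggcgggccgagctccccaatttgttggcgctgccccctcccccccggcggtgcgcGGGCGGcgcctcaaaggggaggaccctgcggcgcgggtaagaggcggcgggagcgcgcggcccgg

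For LOX, which also rose at 6 h, the study listed a candidate binding site of the vitamin D receptor and a primer pair to test it by chromatin immunoprecipitation. The study named the genes at which it found receptor binding by that method (CYP24, TRPV6, CYP26B1, AKAP12 and SEMA3B), and LOX was not among them. Capitals mark the 6 bases on either side of a spacer of 3 in the site, neither of which matches the half-site searched for below, and in the forward primer the 13 bases that it shares with the site. The site is not among the bases of the 3 LOX windows searched here.

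LOX candidate VDR site: CGACCCttaCAACCC
LOX forward primer: tgggcgaCGACCCTTACAAC
LOX reverse primer: agccacatagctggggacca

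Windows of 250 bases before the start were on hand for 40 members (53 windows), and 6 motifs were searched on both strands among 35116 windows of all genes. The vitamin D receptor direct repeat consists of 2 half-sites 3 bases apart, each of 6 bases (A or G, G, G or T, T, C or G, A). It occurred in 0.202% of all windows and in 0 member windows. A single half-site occurred in 55.7% of all windows and in 22 of the 53 member windows (19 members). AP-1 motifs were in 6.57% of all windows and in 2 member windows, 1 of LAMB3 and 1 of LAMA3. The cyclic AMP response element was in 1.65% of all windows and in 1 member window, that of FN1. Sp1 motifs were in 42.6% of all windows and in 37 of the 53 member windows (31 members). TEAD motifs (GGAATG) were in 11.9% of all windows and in 6 member windows, of COL12A1, FBN1, ITGA5, ITGB1, OLFML2A and SPARC. A half-site can lie within other motifs, as in the FN1 stretch, where one overlaps the cyclic AMP response element.

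All levels are gcRMA values on a log2 scale, in which background and probe affinity have been modelled, so that a difference of 1 is 2-fold. A level says nothing about how much of one gene's transcript there is relative to another's. The basal keratins KRT5 (15.2 to 15.4) and KRT14 (16.0 to 16.2) and the luminal keratins KRT8 (12.3 to 13.6) and KRT18 (median 14.5) were high on every array. The basal keratin KRT15 read 9.62 to 12.6, and the secretory marker KLK3 read 3.42 to 5.20. Of the fibroblast and smooth muscle markers, COL1A2, COL3A1, DCN, PDGFRB and DES were below the filter, LUM read 3.15 to 3.52, and COL1A1 (9.45 to 10.7), THY1 (7.14 to 8.55) and ACTA2 (5.69 to 7.49) were above it. Endothelial VWF and CDH5 were below the filter, PECAM1 read 3.39 to 4.45 and leukocyte PTPRC 3.22 to 3.82.

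The arrays were not equally tight. Variation within groups lay mostly along 1 axis (75.2% of the variance), on which 4 arrays stood apart. These were replicate 1 of both the 6 h and the 24 h vehicle groups and, at opposite ends, replicates 1 and 4 of the cells treated for 24 h. The mean SD of a gene was 0.412 with 1,25(OH)2D at 24 h, 0.256 to 0.270 in the other groups at 6 and 24 h, and 0.112 and 0.157 in the 48 h groups. Counts of members at 6 and 24 h are therefore given with and without these 4 arrays, as are the differences of some members. The 4 were picked for their distance from their group means, so leaving them out narrows the spread and favours more calls among all genes. Bulk values cannot tell fewer cells with a transcript from less transcript per cell.

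With 1,25(OH)2D 3 of the 41 tested members rose at 6 h (LAMB3, LOX and SDC1) and 0 fell. At 24 h 0 rose and 5 fell (FN1, CCDC80, FBN2, OLFML2A and GPC4). At 48 h 5 rose and 13 fell, and 10 of the 13 falls were in the interstitial matrix. Of all 12010 genes 3.41% passed the same test at 6 h (limma, Benjamini-Hochberg adjusted p under 0.05; 2.36% rose and 1.04% fell), 0.516% at 24 h (0.325% rose and 0.192% fell) and 12% at 48 h (5.13% rose and 6.87% fell). At an unadjusted p under 0.05, 2 members were lower at 6 h and 3 were higher at 24 h, and the permutation-based method SAM called 0 and 2 of these directions. In both directions together SAM called 16 members at 24 h and 21 at 48 h, so that the difference between these counts was smaller than with limma. The members had a median log2 difference of 0.04, -0.40 and -0.03 at the successive times, beside -0.03, 0.01 and -0.01 for all genes.

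**Figure D1:**
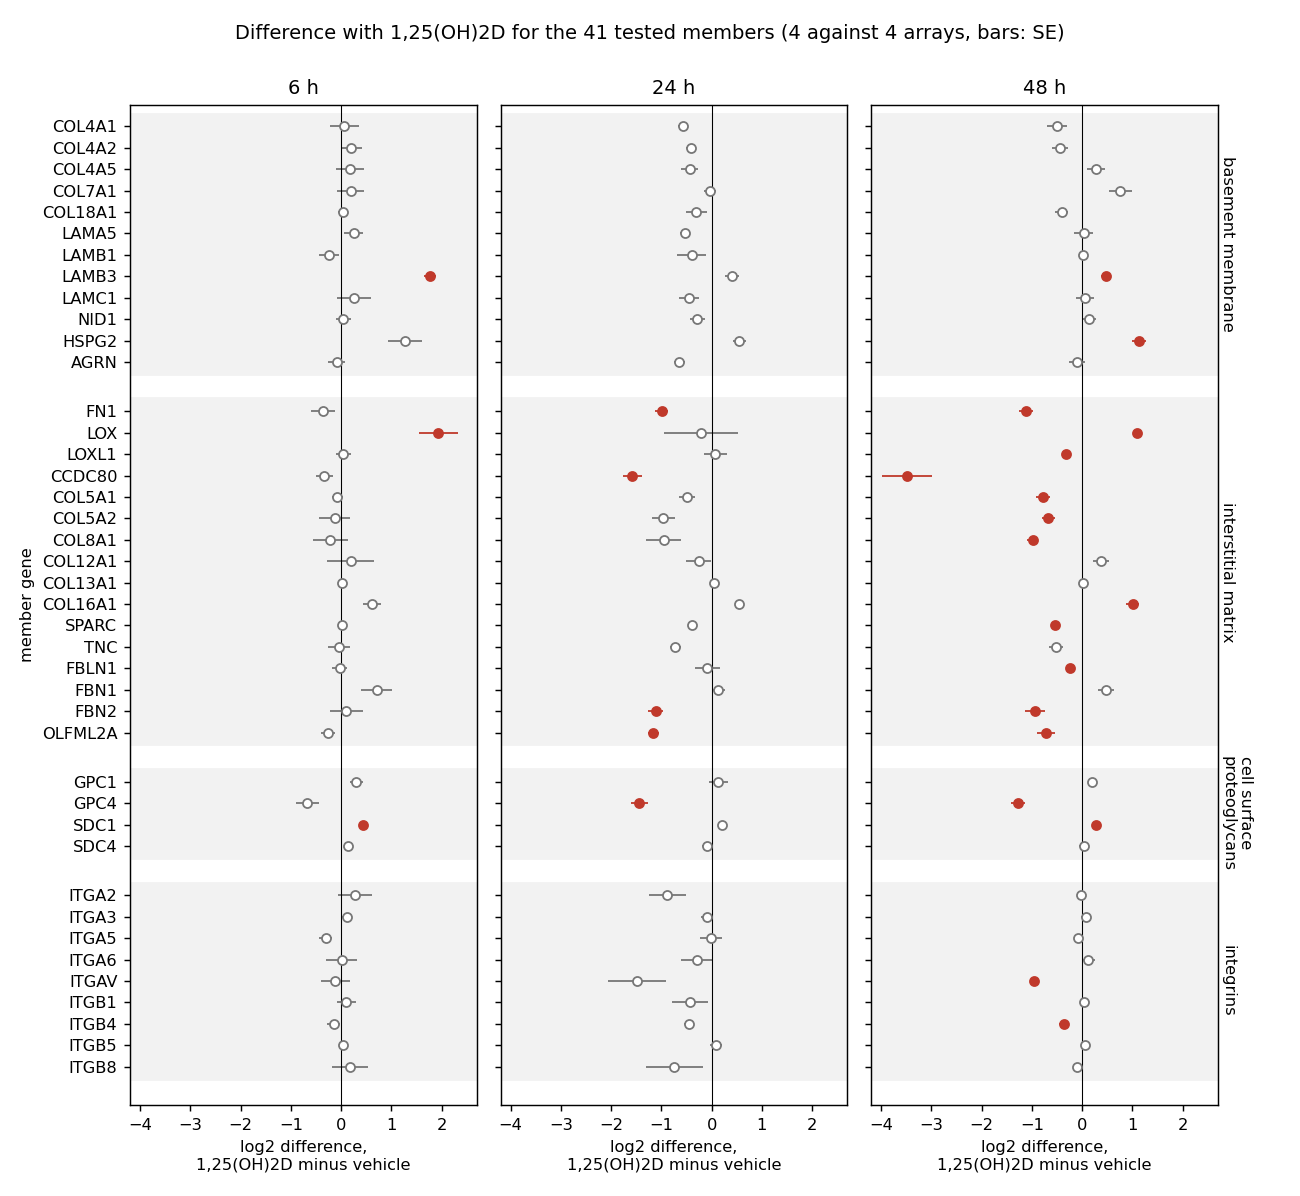
The log2 difference between 4 arrays with 1,25(OH)2D and 4 with vehicle is plotted for each of the 41 tested members at 6, 24 and 48 h, with bars of 1 SE, filled red where the adjusted p was under 0.05. At 6 h 3 members pass, all to the right of 0, while at 48 h 13 of the 18 that pass lie to the left, 10 of them in the interstitial matrix class.

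The groups of arrays can also be compared without a model, by whether all 4 treated arrays lay beyond all 4 vehicle arrays. At 6 h 5 members lay wholly above and 1 wholly below vehicle (all genes: 4.6% and 4.25%). At 24 h the counts were 2 above and 13 below (all genes: 3.04% and 3.06%), and at 48 h 7 above and 14 below (all genes: 8.39% and 10.8%). Several members that missed the adjusted threshold at 24 h thus had groups that did not overlap: COL4A1, COL4A2, LAMA5, AGRN, COL5A2, SPARC, TNC and ITGB4 lay below and HSPG2 and COL16A1 above.

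In the basement membrane class, 12 of the 15 members were tested. LAMB3 rose at 6 h, LAMB3 and HSPG2 rose at 48 h, and 0 members fell at any of the 3 time points. At an unadjusted p under 0.05, 0, 5 and 3 of them were lower at 6, 24 and 48 h, and SAM called 0, 4 and 1. The class had a median log2 difference of 0.18 at 6 h, -0.41 at 24 h and 0.04 at 48 h.

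LAMB3 encodes the beta3 chain of laminin-332, the laminin that anchors basal epithelial cells at hemidesmosomes. LAMB3 at 6 h was 10.37, 10.34, 10.77 and 10.66 on the 4 vehicle arrays (replicates 1 to 4, the order used throughout) and 12.22, 12.28, 12.34 and 12.41 with 1,25(OH)2D. LAMB3 at 24 h was 10.74, 10.44, 10.33 and 10.40 in vehicle and 10.89, 11.04, 10.54 and 11.05 with treatment. LAMB3 at 48 h was 10.69, 10.65, 10.55 and 10.41 in vehicle and 11.01, 11.23, 10.96 and 10.97 with treatment. The groups lay far apart at 6 h, overlapped at 24 h through treated replicate 3, and were separate again, by a smaller distance, at 48 h. The difference was 1.78 ± 0.12 at 6 h (SE, 3.43-fold, adjusted p = 1.51e-04), 0.40 ± 0.15 at 24 h (adjusted p = 0.501) and 0.47 ± 0.08 at 48 h (adjusted p = 0.0120). The effect at 6 h exceeded that at 24 h by 1.37 ± 0.17 (adjusted p = 3.67e-05) and that at 48 h by 1.31 ± 0.17 (adjusted p = 5.72e-05). Vehicle stayed between 10.33 and 10.77 throughout, and in treated cells LAMB3 fell by 1.43 from 6 to 24 h (adjusted p = 4.32e-08). LAMB3 is the gene whose AP-1 motif is shown above. LAMA3, the member that encodes the alpha3 chain, had no probe set named for it alone.

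HSPG2 encodes perlecan, the large heparan sulfate proteoglycan of basement membranes. HSPG2 at 6 h was 5.57, 7.07, 6.98 and 7.13 in vehicle and 7.82, 7.90, 8.20 and 7.93 with 1,25(OH)2D. HSPG2 at 24 h was 7.73, 7.75, 7.83 and 7.63 in vehicle and 8.42, 7.99, 8.16 and 8.56 with treatment. HSPG2 at 48 h was 7.61, 7.56, 7.37 and 7.29 in vehicle and 8.31, 8.93, 8.65 and 8.47 with treatment. All 4 treated arrays were above all 4 vehicle arrays at every time point. The difference passed the threshold at 48 h (1.14 ± 0.14, 2.20-fold, adjusted p = 0.00207), but not at 6 h (1.27 ± 0.34, adjusted p = 0.126) or 24 h (0.55 ± 0.13, adjusted p = 0.237). The vehicle array at 5.57 is 1 of the 4 that stood apart. Without them the 6 h difference was 0.90 and passed (adjusted p = 0.00569), and the 24 h difference was 0.34 and did not (adjusted p = 0.0643).

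The other 10 tested basement membrane members did not pass at any time point with all arrays in the fit. COL4A1 and COL4A2 differed by 0.06 and 0.20 at 6 h, by -0.56 and -0.42 at 24 h, and by -0.50 and -0.43 at 48 h, so that both genes of the shared start region lay lower with treatment at both later times (adjusted p = 0.0812 and 0.200 at 24 h, 0.179 and 0.143 at 48 h). COL4A5, a chain of another type IV trimer, differed by -0.44 at 24 h and 0.27 at 48 h. COL7A1, the collagen of anchoring fibrils, differed by -0.02 at 24 h and 0.76 ± 0.23 at 48 h (adjusted p = 0.0890), where all its treated arrays were above vehicle and 1 of its 2 probe sets passed. COL18A1, the source of endostatin, differed by -0.41 at 48 h (adjusted p = 0.0843), with its treated arrays wholly below vehicle.

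The remaining laminin chains showed small differences at 48 h. LAMA5, LAMB1 and LAMC1, the chains of laminin-511, differed by 0.03, 0.01 and 0.05 at that time and by -0.54, -0.40 and -0.45 at 24 h. NID1 (nidogen-1, the linker of laminin and collagen IV) differed by -0.29 at 24 h and 0.14 at 48 h. AGRN (agrin) differed by -0.64 ± 0.10 at 24 h (adjusted p = 0.0667) and -0.11 at 48 h. Without the arrays that stood apart 5 basement membrane members fell at 24 h, namely COL4A1 (-0.60), COL4A2 (-0.49), COL4A5 (-0.51), LAMA5 (-0.65) and AGRN (-0.71). In that fit 14.2% of all genes fell.

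Of the interstitial matrix class 16 of 17 members were tested. At 48 h 10 of them fell and LOX and COL16A1 rose, with a median of -0.53. At 24 h 4 fell (FN1, CCDC80, FBN2 and OLFML2A) with a median of -0.44, and at 6 h LOX rose with a class median of -0.01.

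LOX encodes lysyl oxidase, the enzyme that starts the crosslinking of collagen and elastin. LOX at 6 h was 7.59, 8.94, 8.81 and 9.12 in vehicle and 10.07, 10.10, 11.12 and 10.92 with 1,25(OH)2D. LOX at 24 h was 7.42, 9.07, 8.87 and 8.88 in vehicle and 9.77, 8.46, 8.82 and 6.35 with treatment. LOX at 48 h was 8.37, 8.45, 8.48 and 8.40 in vehicle and 9.41, 9.70, 9.47 and 9.48 with treatment. Treated arrays were all above vehicle at 6 and 48 h and spread on both sides of it at 24 h, where the lowest vehicle array and the highest and the lowest treated arrays are those that stood apart. The difference was 1.94 ± 0.39 at 6 h (3.83-fold, adjusted p = 0.0404), -0.21 ± 0.73 at 24 h (adjusted p = 0.873) and 1.09 ± 0.07 at 48 h (2.13-fold, adjusted p = 7.59e-05). Without those arrays it was 1.60 at 6 h (adjusted p = 0.0334) and -0.30 at 24 h (adjusted p = 0.181). All 3 LOX probe sets rose at 6 h and at 48 h, but at 24 h they ranged from -0.21 to 0.76 and 1 of them rose. The 6 h call was lost in 7 of the 8 fits that left out 1 array, all but the fit without vehicle replicate 1 (adjusted p from 0.0638 to 0.137). It was also lost with an offset of 32 added on the linear scale and with no filter. The 48 h call was lost in a fit of all 24 arrays (adjusted p = 0.424), in which the wider spread of the earlier times enters.

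Of the related enzymes, LOXL1, which acts on elastin, fell by 0.32 ± 0.06 at 48 h (adjusted p = 0.0104). This call was lost with each array centred on its median (adjusted p = 0.0550), with the replicate number as a block (0.0578) and in the fit of all 24 arrays (0.527). LOXL2 was below the filter and was not tested, with group means from 2.08 to 2.45.

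COL16A1 encodes a collagen that associates with fibrils. COL16A1 at 6 h was 9.26, 9.68, 9.67 and 9.80 in vehicle and 10.02, 9.91, 10.55 and 10.40 with 1,25(OH)2D. COL16A1 at 24 h was 9.93, 9.85, 9.76 and 9.94 in vehicle and 10.50, 10.27, 10.43 and 10.50 with treatment. COL16A1 at 48 h was 9.58, 9.46, 9.38 and 9.39 in vehicle and 10.27, 10.85, 10.37 and 10.32 with treatment. The treated arrays were above all vehicle arrays at each time. The difference was 0.61 ± 0.18 at 6 h (adjusted p = 0.180), 0.55 ± 0.08 at 24 h (adjusted p = 0.0575) and 1.00 ± 0.13 at 48 h (2.00-fold, adjusted p = 0.00276), and at 24 h it passed without the arrays that stood apart (0.50, adjusted p = 0.0260).

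FN1 encodes fibronectin, the main ligand of alpha5beta1 integrin and one of those of alphaV integrins. FN1 at 6 h was 11.50, 12.26, 12.69 and 12.36 in vehicle and 11.58, 11.85, 11.91 and 12.05 with 1,25(OH)2D. FN1 at 24 h was 12.45, 12.39, 12.04 and 12.27 in vehicle and 11.25, 11.40, 11.07 and 11.45 with treatment. FN1 at 48 h was 12.02, 11.93, 11.82 and 11.76 in vehicle and 10.52, 11.16, 10.69 and 10.66 with treatment. The groups overlapped at 6 h and were separate at both later times. The difference was -0.35 ± 0.24 at 6 h (adjusted p = 0.962), -0.995 ± 0.13 at 24 h (adjusted p = 0.0282) and -1.12 ± 0.14 at 48 h (2.18-fold lower, adjusted p = 0.00200). All 5 FN1 probe sets were lower at 24 h (-1.04 to -0.95) and at 48 h (-1.23 to -1.12), where 2 and 4 of them passed. With the arrays that stood apart omitted, the 24 h difference was -0.999 (adjusted p = 0.0199), while dropping single arrays took the adjusted p to as much as 0.142. The 24 h call was also lost with centring, with no filter, with the replicate block and with the mean of the probe sets (adjusted p up to 0.502).

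CCDC80 encodes a secreted matrix protein that is known to promote cell adhesion. CCDC80 at 6 h was 8.77, 8.92, 9.11 and 8.91 in vehicle and 8.18, 8.48, 8.82 and 8.89 with 1,25(OH)2D. CCDC80 at 24 h was 8.34, 8.45, 8.13 and 8.32 in vehicle and 6.78, 6.23, 7.16 and 6.74 with treatment. CCDC80 at 48 h was 8.18, 8.07, 7.87 and 8.27 in vehicle and 3.78, 6.25, 4.50 and 3.91 with treatment. The groups overlapped at 6 h and were far apart at 24 and 48 h, and treated replicate 2 at 48 h was well above the 3 others. The difference was -0.34 ± 0.17 at 6 h, -1.58 ± 0.19 at 24 h (2.99-fold lower, adjusted p = 0.0226) and -3.48 ± 0.50 at 48 h (11.2-fold lower, adjusted p = 0.00463). This was the largest difference of any tested member at any time, although the second CCDC80 probe set gave -0.72 at 24 h, where it did not pass, and -1.18 at 48 h, where it did. Between 6 and 48 h the effect changed by -3.15 ± 0.49 (adjusted p = 5.16e-04), and in treated cells the level fell by 1.86 from 6 to 24 h (adjusted p = 9.53e-04) and by a further 2.12 from 24 to 48 h (adjusted p = 0.00234). With an offset of 32 added on the linear scale, which shrinks differences at low levels, CCDC80 differed by -2.35 at 48 h and by -1.21 between the treated groups at 24 and 48 h, and both still passed.

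**Figure D2:**
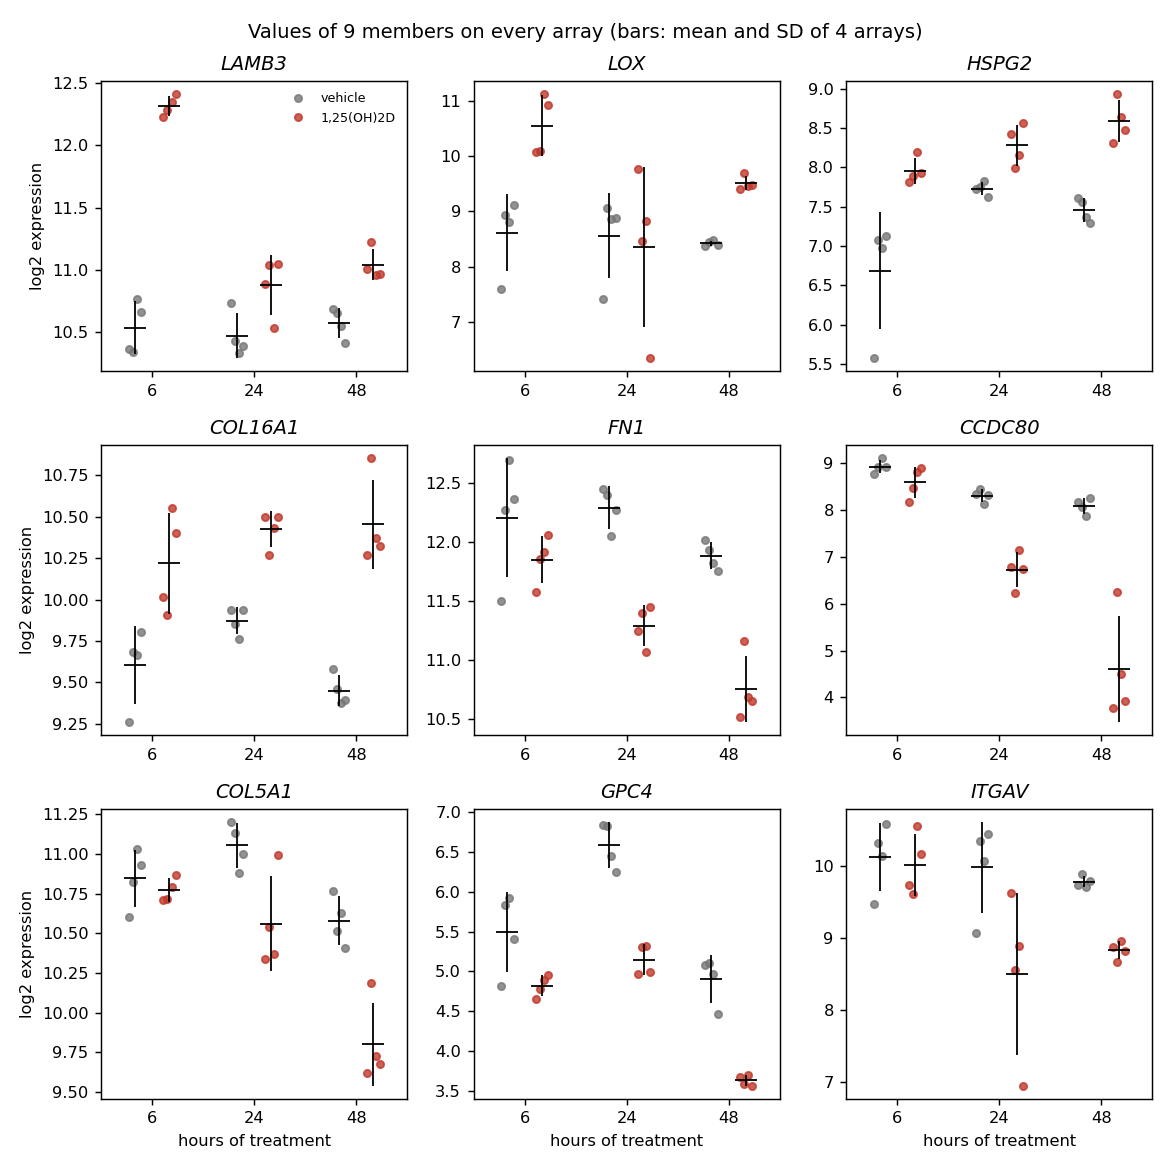
Each point is the log2 value of 1 array for 9 members, grey for vehicle and red for 1,25(OH)2D, with the mean and SD of the 4 arrays as a black cross, over hours of treatment and with a scale of its own in each panel. LAMB3 and LOX are highest in treated cells at 6 h, whereas FN1, CCDC80, COL5A1 and GPC4 are lowest in treated cells at 48 h. LOX and ITGAV show wide spread at 24 h.

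The collagen members that fell at 48 h were COL5A1, COL5A2 and COL8A1. COL5A1 and COL5A2 encode chains of type V collagen, which is found within type I collagen fibrils. COL5A1 at 6 h was 10.61, 10.82, 11.03 and 10.93 in vehicle and 10.71, 10.72, 10.79 and 10.87 with 1,25(OH)2D. COL5A1 at 24 h was 11.20, 11.13, 10.88 and 11.00 in vehicle and 10.34, 10.54, 10.37 and 10.99 with treatment. COL5A1 at 48 h was 10.77, 10.51, 10.63 and 10.41 in vehicle and 9.62, 10.19, 9.72 and 9.68 with treatment. The treated arrays at 48 h were all below vehicle, with replicate 2 nearest to it, and at 24 h treated replicate 4 lay among the vehicle arrays. The difference was -0.07 at 6 h, -0.49 ± 0.16 at 24 h (adjusted p = 0.435) and -0.78 ± 0.14 at 48 h (adjusted p = 0.0110).

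COL5A2 at 6 h was 9.49, 10.43, 10.52 and 10.87 in vehicle and 9.96, 9.84, 10.58 and 10.41 with 1,25(OH)2D. COL5A2 at 24 h was 10.28, 10.82, 10.54 and 10.74 in vehicle and 10.13, 9.38, 9.87 and 9.15 with treatment. COL5A2 at 48 h was 10.14, 10.31, 10.29 and 10.03 in vehicle and 9.41, 9.93, 9.42 and 9.33 with treatment. As for COL5A1, the highest treated array at 48 h was replicate 2, and the groups did not overlap at 24 or 48 h. The difference was -0.13 at 6 h, -0.96 ± 0.23 at 24 h (adjusted p = 0.239) and -0.67 ± 0.14 at 48 h (adjusted p = 0.0198). The 48 h call was lost in 5 of the 8 fits that left out 1 array (vehicle replicate 2 or 3, or treated replicate 1, 3 or 4, adjusted p from 0.0511 to 0.0628), with no filter (0.0607) and in the fit of all 24 arrays (0.208).

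COL8A1 encodes a chain of a short network collagen. COL8A1 at 6 h was 10.60, 11.65, 12.15 and 11.87 in vehicle and 10.98, 11.00, 11.75 and 11.67 with 1,25(OH)2D. COL8A1 at 24 h was 10.97, 11.94, 11.47 and 11.66 in vehicle and 11.12, 10.64, 10.86 and 9.60 with treatment. COL8A1 at 48 h was 11.01, 11.14, 11.02 and 10.99 in vehicle and 9.87, 10.37, 9.92 and 10.05 with treatment. Only at 48 h were the groups separate. The difference was -0.22 at 6 h, -0.95 ± 0.35 at 24 h (adjusted p = 0.512) and -0.99 ± 0.11 at 48 h (1.99-fold lower, adjusted p = 0.00122), which in the fit of all 24 arrays had an adjusted p of 0.102. Without the arrays that stood apart COL5A1 (-0.55), COL5A2 (-1.07) and COL8A1 (-0.94) all fell at 24 h.

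FBN2 encodes fibrillin-2, a component of microfibrils. FBN2 at 6 h was 11.31, 12.64, 12.65 and 12.76 in vehicle and 12.06, 12.34, 12.68 and 12.70 with 1,25(OH)2D. FBN2 at 24 h was 12.22, 12.57, 12.30 and 12.59 in vehicle and 11.61, 11.25, 11.36 and 11.01 with treatment. FBN2 at 48 h was 12.11, 12.19, 11.87 and 11.84 in vehicle and 10.72, 11.69, 10.99 and 10.86 with treatment. Treated and vehicle arrays overlapped at 6 h and were separate later, at 48 h by a small gap because treated replicate 2 was close to vehicle. The difference was 0.10 at 6 h, -1.11 ± 0.15 at 24 h (2.17-fold lower, adjusted p = 0.0338) and -0.94 ± 0.20 at 48 h (adjusted p = 0.0267). FBN1, fibrillin-1, did not pass at any time and differed by 0.71, 0.13 and 0.47 at 6, 24 and 48 h.

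OLFML2A encodes an olfactomedin-domain protein of the matrix. OLFML2A at 6 h was 9.69, 9.81, 9.71 and 10.24 in vehicle and 9.75, 9.54, 9.49 and 9.59 with 1,25(OH)2D. OLFML2A at 24 h was 10.73, 10.63, 10.56 and 10.74 in vehicle and 9.75, 9.34, 9.40 and 9.53 with treatment. OLFML2A at 48 h was 10.64, 10.37, 10.83 and 10.57 in vehicle and 9.57, 10.35, 9.92 and 9.69 with treatment. At 24 h the groups were about 1 unit apart, whereas at 48 h treated replicate 2 nearly touched the lowest vehicle array. The difference was -0.27 at 6 h, -1.16 ± 0.11 at 24 h (2.23-fold lower, adjusted p = 0.00783) and -0.72 ± 0.17 at 48 h (adjusted p = 0.0396). In vehicle cells the level rose by 0.80 from 6 to 24 h (adjusted p = 0.00162), and in treated cells it did not pass that test, with means of 9.59 and 9.50. Between 6 and 24 h the effect changed by -0.89 ± 0.21 (adjusted p = 0.0264).

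Among the matricellular members, SPARC, a collagen-binding glycoprotein, fell by 0.54 ± 0.06 at 48 h (adjusted p = 0.00120), with vehicle means of 13.18, 13.33 and 13.37 and treated means of 13.20, 12.94 and 12.83 at 6, 24 and 48 h. The SPARC effect differed from that at 6 h by -0.40 ± 0.10 at 24 h (adjusted p = 0.0333) and by -0.56 ± 0.10 at 48 h (adjusted p = 0.00158), neither of which passed with each array centred on its median (adjusted p = 0.520 and 0.375). FBLN1 (fibulin-1, which binds elastic fibers and basement membranes) fell by 0.24 ± 0.05 at 48 h (adjusted p = 0.0302). That call was lost with centring (adjusted p = 0.122), with the replicate block (0.131), in the fit of all 24 arrays (0.880) and in 5 of the 8 fits that left out 1 array (vehicle replicate 2, 3 or 4, or treated replicate 3 or 4, 0.0710 to 0.0831). TNC (tenascin-C) differed by -0.72 ± 0.11 at 24 h (adjusted p = 0.0509) and -0.53 ± 0.14 at 48 h (adjusted p = 0.0601) and so did not pass. Of the other collagens, COL12A1, which decorates fibrils, differed by 0.38 at 48 h (adjusted p = 0.216), and the transmembrane collagen COL13A1, at 3.22 to 3.29 in every group mean, was close to the lowest value tested. Among the 5 arrays at 24 h that did not stand apart, 9 interstitial members fell, the 4 named above with COL5A1, COL5A2, COL8A1, SPARC (-0.32) and TNC (-0.77), and COL16A1 rose. Of all genes 14.2% fell and 10.6% rose among these arrays.

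Levels of fibroblast markers are given beside the interstitial class because fibroblasts make many of these proteins. Of the 4 fibroblast and smooth muscle markers that were tested 1 changed at 48 h: COL1A1 fell by 0.60 (adjusted p = 0.0136). THY1 differed by 0.04, ACTA2 by -0.38 and LUM by 0.02, and none of these passed. The summed linear signal of the 4 was 1273 to 1720 on the vehicle arrays and 953 to 1130 on the treated arrays at 48 h, 1132 to 1652 and 1365 to 1772 at 6 h, and 1240 to 2182 and 1080 to 1898 at 24 h. COL1A1, with the highest signal of the 4 (9.45 to 10.7), weighs most in this sum. The lower sum at 48 h therefore mostly repeats the COL1A1 fall and does not describe the 4 markers as a set. The basal keratin KRT15 also fell at 48 h (-1.92, adjusted p = 9.38e-05). The basal keratins KRT5 (0.01, adjusted p = 0.935) and KRT14 (0.06, adjusted p = 0.420) did not pass. The part of the fibroblast markers or of KRT15 in the matrix changes was not tested.

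All 4 cell surface proteoglycans were tested. SDC1 rose at 6 and 48 h, GPC4 fell at 24 and 48 h, and GPC1 and SDC4 did not pass with treatment at any time point.

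GPC4 encodes glypican-4, which is held at the membrane by a lipid anchor. GPC4 at 6 h was 4.81, 5.83, 5.93 and 5.40 in vehicle and 4.65, 4.78, 4.90 and 4.95 with 1,25(OH)2D. GPC4 at 24 h was 6.83, 6.82, 6.44 and 6.25 in vehicle and 4.97, 5.31, 5.31 and 4.99 with treatment. GPC4 at 48 h was 5.08, 5.10, 4.97 and 4.47 in vehicle and 3.68, 3.58, 3.70 and 3.57 with treatment. The groups overlapped at 6 h only through vehicle replicate 1, and were separate at 24 and 48 h. The difference was -0.67 ± 0.23 at 6 h (adjusted p = 0.317), -1.44 ± 0.17 at 24 h (2.72-fold lower, adjusted p = 0.0196) and -1.27 ± 0.14 at 48 h (2.41-fold lower, adjusted p = 0.00118). When vehicle replicate 1 was left out GPC4 also fell at 6 h (-0.90, adjusted p = 0.0212). Vehicle cells changed too, with a rise of 1.10 ± 0.20 from 6 to 24 h (adjusted p = 0.00111) and a change of -1.68 ± 0.20 from 24 to 48 h (adjusted p = 1.84e-04). Treated cells changed by -1.51 ± 0.20 from 24 to 48 h (adjusted p = 1.70e-04). At 48 h the treated values were near the lowest value tested (3.203), and the size of the difference depended on how low values were treated. With an offset of 32 on the linear scale it was -0.93 at 24 h and -0.49 at 48 h, and the change from 24 to 48 h was -1.05 in vehicle and -0.60 in treated cells, all of which still passed.

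SDC1 encodes syndecan-1, the main syndecan of epithelial cells. SDC1 at 6 h was 13.10, 12.97, 12.98 and 13.10 in vehicle and 13.45, 13.52, 13.38 and 13.59 with 1,25(OH)2D. SDC1 at 24 h was 13.17, 12.95, 13.02 and 13.10 in vehicle and 13.14, 13.31, 13.20 and 13.45 with treatment. SDC1 at 48 h was 13.17, 12.96, 13.07 and 12.95 in vehicle and 13.29, 13.40, 13.29 and 13.28 with treatment. All treated arrays were above vehicle at 6 and 48 h, by small distances. The difference was 0.44 ± 0.08 at 6 h (1.36-fold, adjusted p = 0.0287), 0.21 ± 0.09 at 24 h (adjusted p = 0.592) and 0.28 ± 0.06 at 48 h (1.21-fold, adjusted p = 0.0283), and each call was lost in 6 of the 8 fits that left out 1 array. The 6 h call was also lost with centring and with the replicate block (adjusted p up to 0.316). With no filter and with the replicate block the 48 h call was lost as well (adjusted p up to 0.108). GPC1, glypican-1, differed by 0.30, 0.14 and 0.20 at 6, 24 and 48 h. SDC4, syndecan-4 of focal adhesions, differed by 0.15, -0.09 and 0.04, but fell with time in vehicle (by 0.55 from 6 to 24 h, adjusted p = 7.25e-04) and in treated cells (by 0.79, adjusted p = 5.34e-06).

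Of the 11 integrin subunits 9 were tested. At 6 and 24 h 0 of them passed, at 48 h ITGAV and ITGB4 fell, and 0 rose at any time. At an unadjusted p under 0.05, 1 integrin was lower at 6 h, 3 at 24 h and 0 higher at any time, and SAM called 0, 1 and 0. The other 7 differed by -0.10 to 0.12 at 48 h.

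ITGAV encodes alphaV, which pairs with several beta subunits to bind fibronectin and vitronectin and to activate latent TGF-beta. ITGAV at 6 h was 9.48, 10.32, 10.14 and 10.60 in vehicle and 9.74, 9.62, 10.56 and 10.17 with 1,25(OH)2D. ITGAV at 24 h was 9.07, 10.36, 10.08 and 10.45 in vehicle and 9.62, 8.56, 8.89 and 6.95 with treatment. ITGAV at 48 h was 9.75, 9.90, 9.72 and 9.79 in vehicle and 8.88, 8.67, 8.96 and 8.83 with treatment. The groups overlapped at 6 h, overlapped at 24 h only through the arrays numbered 1, both of which stood apart, and were separate at 48 h. The difference was -0.11 at 6 h, -1.48 ± 0.58 at 24 h (adjusted p = 0.534) and -0.95 ± 0.07 at 48 h (1.94-fold lower, adjusted p = 1.77e-04). Without the arrays that stood apart the 24 h difference was -1.57 and passed (adjusted p = 0.0133), and in the fit of all 24 arrays the 48 h difference did not (adjusted p = 0.297).

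ITGB5 and ITGB8, partners of alphaV, did not follow it at 48 h, with differences of 0.06 ± 0.07 and -0.10 ± 0.08. ITGB6, another partner, had only probe sets that carry the symbol of a second gene as well, and ITGB2, the leukocyte beta subunit, was below the filter with group means from 2.24 to 2.28. ITGB1, the common partner of alpha2, alpha3, alpha5 and alpha6, differed by 0.10, -0.44 and 0.03 at 6, 24 and 48 h. Those alpha subunits, receptors of collagen (ITGA2), laminin (ITGA3 and ITGA6) and fibronectin (ITGA5), differed at 48 h by -0.03, 0.08, 0.12 and -0.08 for ITGA2, ITGA3, ITGA6 and ITGA5. At 6 h ITGA5 was the 1 member whose treated arrays all lay below vehicle (-0.30 ± 0.13, adjusted p = 0.510).

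ITGB4, the hemidesmosome subunit that pairs with alpha6 to bind laminin-332, fell by 0.37 ± 0.09 at 48 h (adjusted p = 0.0415), with means of 12.84 in vehicle and 12.47 with treatment. Of its 4 probe sets 3 were lower and 1 was at 0.03, and the call was lost with the mean of the probe sets and in 7 of the 8 fits that left out 1 array, all but the fit without treated replicate 2 (adjusted p from 0.0616 to 0.114). Its difference at 24 h was of similar size, -0.46 ± 0.09 (adjusted p = 0.146).

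Several integrins varied widely among the treated arrays at 24 h. The SD of the treated arrays was 1.13 for ITGAV, 1.03 for ITGB8, 0.71 for ITGB1, 0.69 for ITGA2 and 0.64 for ITGA6. In each of these 5 treated replicate 4 was the lowest of the 4 and treated replicate 1 the highest, both arrays that stood apart. Without the arrays that stood apart 14.2% of all genes fell at 24 h. Of the 9 integrins 5 fell in that fit, with differences of -1.57 for ITGAV, -1.10 for ITGB8, -0.51 for ITGB1 and -0.45 for ITGB4, while ITGA2 fell by 1.00. ITGB8's second probe set did not share this direction with all arrays in the fit (0.01).

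**Figure D3:**
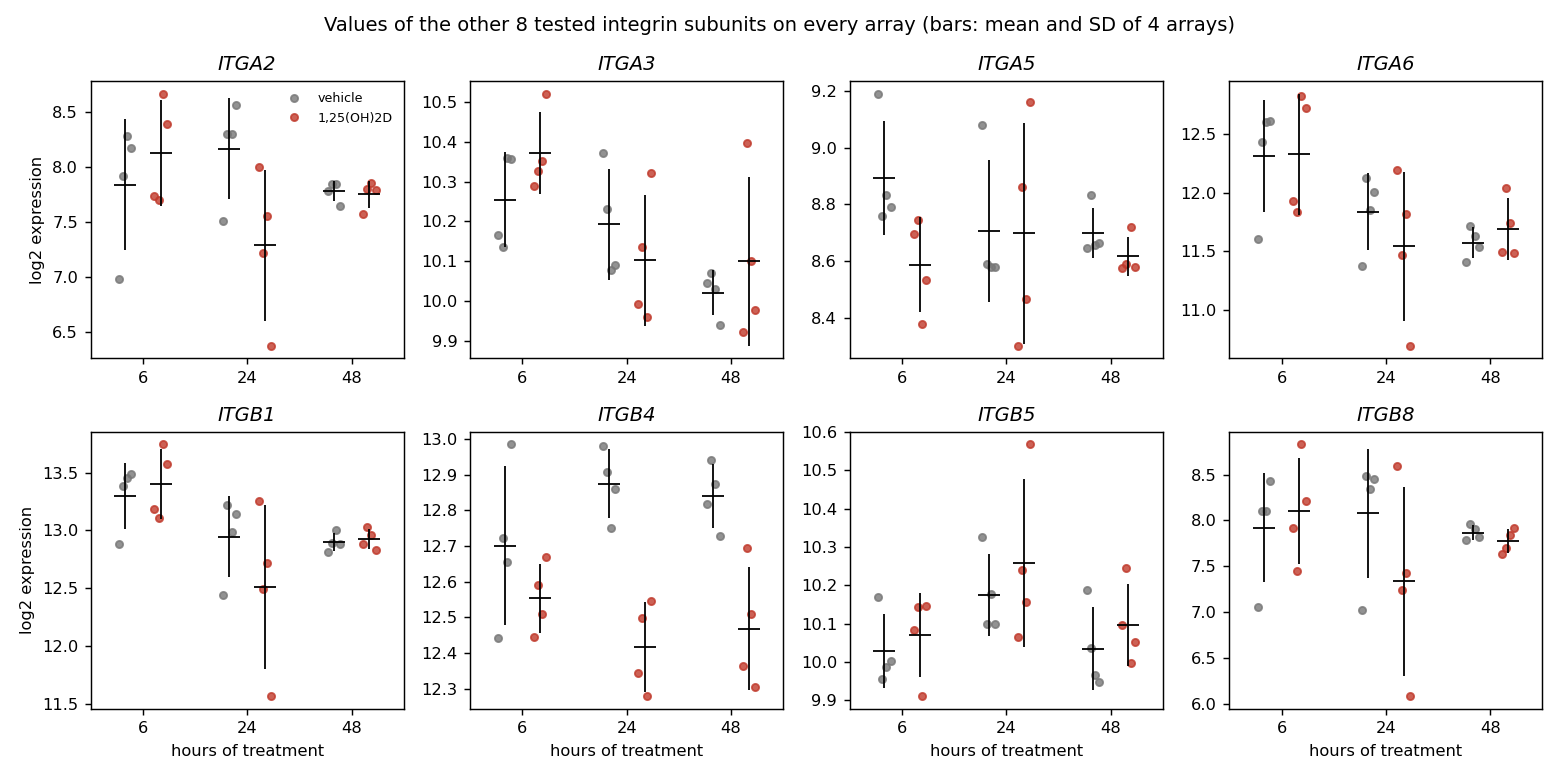
Each point is the log2 value of 1 array for the 8 tested integrin subunits other than ITGAV, grey for vehicle and red for 1,25(OH)2D, with the mean and SD of the 4 arrays as a black cross, and each panel has a scale of its own. ITGB4 is lower in treated cells at 24 and 48 h, while ITGA2, ITGA6, ITGB1 and ITGB8 spread widely at 24 h and coincide at 48 h.

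Because 3 of the 8 arrays at 24 h stood apart, the 24 h comparison was also made with the other 5. These were vehicle replicates 2, 3 and 4 and treated replicates 2 and 3. Then 1 of the 41 members rose and 20 fell, against 10.6% and 14.2% of all genes, and the member median was -0.45. All 5 members that had fallen with all arrays in the fit were among the 20. Over all genes the number that passed went from 62 to 2973. Arrays far from their group means had been taken out, which by itself narrows the spread, so the added calls are not separate support for a change. FN1 went from -0.995 to -0.999 and CCDC80 from -1.58 to -1.61, whereas ITGB8 went from -0.74 to -1.10, GPC4 from -1.44 to -1.19 and HSPG2 from 0.55 to 0.34. With all arrays in the fit but 1, the 24 h call was lost in 7 of the 8 fits for FN1, 6 for FBN2, 5 for GPC4, 4 for CCDC80 and 2 for OLFML2A. At 6 h, without the single array that stood apart, 4 members rose and 1 fell, against 2.74% and 1.3% of all genes, with HSPG2 and GPC4 joining the 3 that had passed.

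**Figure D4:**
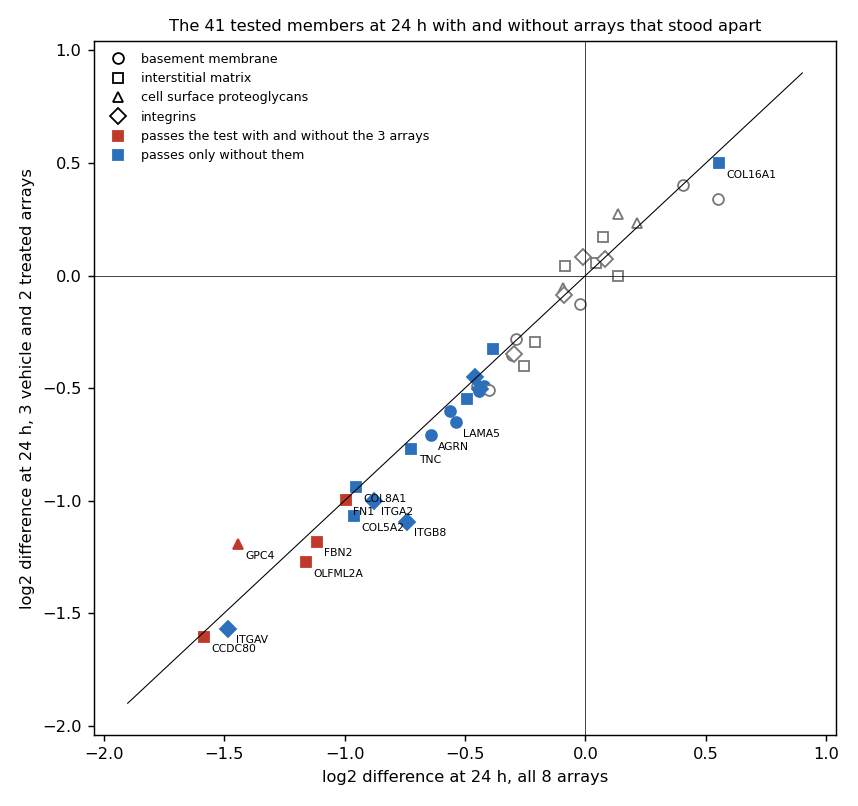
For each of the 41 tested members the log2 difference at 24 h from all 8 arrays (horizontal) is set against that from the 5 arrays left when the 3 that stood apart are omitted (vertical), with the shape giving the class and the line marking equal values. The 5 members in red pass both ways, the 16 in blue pass only without the 3 arrays, and ITGB8 (-0.74 and -1.10) and GPC4 (-1.44 and -1.19) lie farthest from the line.

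Without hormone the members also changed with time in culture. From 6 to 24 h 6 members rose and 1 fell in vehicle cells (8.97% of all genes passed). The rises were HSPG2 (1.04 ± 0.24), COL18A1 (0.83 ± 0.15), LAMA5 (0.93 ± 0.17), FBLN1 (0.72 ± 0.18), OLFML2A and GPC4, and the fall was SDC4. Under the alternatives the HSPG2 rise was as small as 0.67 but kept its call. The FBLN1 call was lost with centring and without vehicle replicate 3 at 6 h or replicate 1 at 24 h (adjusted p up to 0.114). In treated cells 2 rose and 11 fell over the same interval (19.4% of all genes passed). The treated falls included LOX (by 2.20 ± 0.51), ITGAV (by 1.51 ± 0.40), FBN2 (by 1.14 ± 0.26), ITGB1 (by 0.89 ± 0.25), COL4A1 (by 0.84 ± 0.22), TNC (by 0.68 ± 0.18), FN1 (by 0.56 ± 0.19) and SPARC (by 0.26 ± 0.07) along with LAMB3, CCDC80 and SDC4. COL18A1 (0.49 ± 0.15) and FBLN1 (0.67 ± 0.18) rose in treated as in vehicle cells. LOX fell by 1.53 when treated replicate 4 at 24 h was left out, and the FN1 change was lost in 6 and that of COL18A1 in 4 of the 8 fits that left out 1 treated array.

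From 24 to 48 h GPC4 was the 1 member that passed in vehicle cells (0.425% of all genes), and in treated cells COL18A1 (-0.59 ± 0.15), CCDC80, COL5A1 (-0.76 ± 0.14) and GPC4 fell (2.43% of all genes), COL18A1 no longer in 6 of the 8 fits that left out 1 treated array. Medium was replaced at 24 h in the 48 h cultures, and its part in these changes cannot be told apart from that of time. The effect of 1,25(OH)2D itself differed between 6 and 24 h for LAMB3, SPARC and OLFML2A (2.84% of all genes), between 6 and 48 h for LAMB3, CCDC80 and SPARC (3.71% of all genes), and between 24 and 48 h for 0 members by limma (0.05% of all genes). In all 6 of these cases the later difference was the lower one, and the cases of SPARC and OLFML2A between 6 and 24 h were lost in 7 and 8 of the 16 fits that left out 1 array. Between 24 and 48 h 7 members had an unadjusted p under 0.05, 6 with a higher and 1 with a lower later difference.

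Genes that act with the members were followed in 3 further lists. Among 20 tested matrix processing enzymes 1 rose and 4 fell at 48 h, with a median of -0.06. PLOD3, a lysyl hydroxylase, rose by 0.23 (adjusted p = 0.0277), and TGM2, the transglutaminase that crosslinks fibronectin, and P4HA2, a prolyl hydroxylase subunit, differed by -1.14 (adjusted p = 1.10e-04) and -0.62 (adjusted p = 0.00139). In 33 other tested genes of matrix proteins and integrins 1 rose and 11 fell at 48 h, with a median of -0.17. BGN (biglycan) rose by 0.74 (adjusted p = 0.00143), and MFAP5, a microfibril protein, and MATN2 (matrilin-2) differed by -2.46 (adjusted p = 1.60e-06) and -1.89 (adjusted p = 0.00143), the latter by -1.12 with the offset. PLOD3 did not pass in the fit of all 24 arrays (adjusted p = 0.629), with the replicate block or in 5 of the 8 fits that left out 1 array.

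Of 26 tested partners of integrins and hemidesmosomes 2 rose and 4 fell at 48 h, with a median of -0.03. CD151, a tetraspanin bound to laminin-binding integrins, rose by 0.49 (adjusted p = 0.0155) and PARVB by 0.40 (adjusted p = 0.0183), whereas TNS1 differed by -1.54 (adjusted p = 3.47e-04) and PARVA by -0.71 (adjusted p = 6.74e-04). In the fit of all 24 arrays CD151, PARVB and PARVA did not pass (adjusted p = 0.176, 0.688 and 0.0633). CD151 and PARVB were also lost with the replicate block, and PARVB in 3 of the 8 fits that left out 1 array. PARVA and PARVB are related actin-binding adaptors of focal adhesions, and TNS1 is a tensin that links integrin tails to actin. At 6 h TNS3, another tensin (1.03, adjusted p = 0.00634), and the kinase SRC (0.72, adjusted p = 0.0104) rose and 0 partners fell. In the enzymes and in the other matrix genes 0 passed limma at 6 h, with 2 of each at an unadjusted p under 0.05. At 24 h 0 genes of the 3 lists passed, with 4 enzymes, 9 other matrix genes and 3 partners at an unadjusted p under 0.05.

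**Figure D5:**
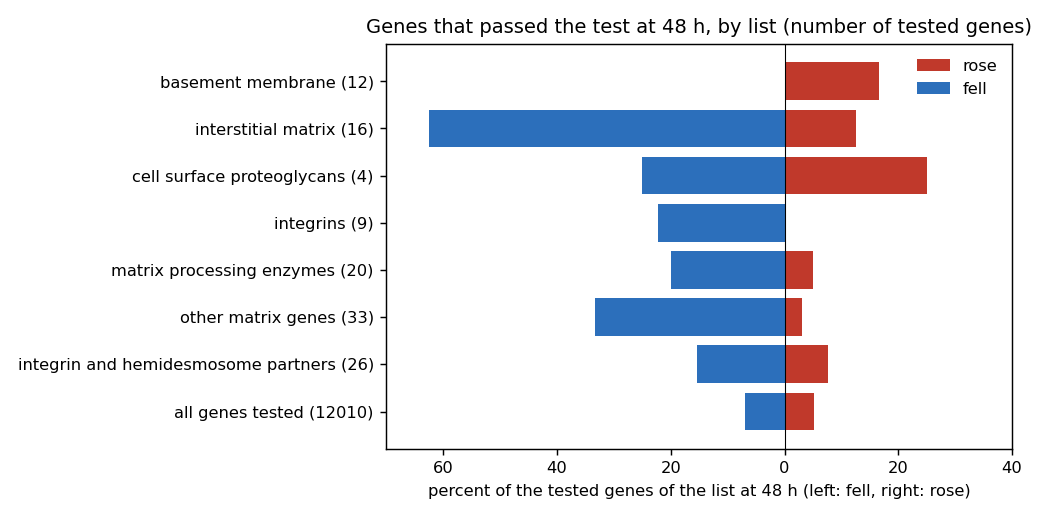
Bars show the percent of the tested genes in each list that fell (left, blue) or rose (right, red) at 48 h, with the number of tested genes in brackets and all 12010 tested genes as the last row. The interstitial matrix has 10 falls among 16 genes, and the basement membrane has 2 rises and no fall among 12.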

How the data were processed

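The arrays were Affymetrix U133 Plus 2.0. The authors used gcRMA to correct the background of the 24 arrays and to normalize and summarise them, so that the deposited table holds log2 intensities of 54613 probe sets and 62 controls. The gcRMA version is not given in the sources used here. Controls were left out. Probe sets were ranked by the value that 3 of 4 arrays reached in the best group, and the top 26000 were tested (lowest value kept 3.203). The annotation gave 1 symbol to 41091 probe sets, several to 1801 and none to 11721, so COL17A1 and LAMA3, which have no probe set with a symbol of their own, and ITGB6 were not analysed, and LAMB2 (group means 2.53 to 2.94), ITGB2 and LOXL2 were below the filter. For each gene the brightest tested probe set was used.

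At each time point the 4 treated and 4 vehicle arrays went into a fit of their own with limma 3.58.1 (lmFit, eBayes, R 4.3.3), with Benjamini-Hochberg adjustment over all 26000 probe sets. Changes with time and differences between effects came from 1 fit of all 24 arrays with 6 group means. Errors are standard errors unless given as SD. The number of arrays limits the precision, and p-values set a difference against the spread between these cultures. The test was run first on simulated data, with noise drawn independently for each probe set. That run held no arrays that stood apart, so it cannot show how the test behaves with them.

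All members are named. Array values are given for 14: those called at 2 or more time points, then those with the largest differences. In other lists the 2 largest rises and falls per time point are named. Members and lists were chosen with earlier results of these data known. Alternatives were a second quantile normalization, centring, an offset of 32, no filter, a stricter filter of 15000, a trended and robust prior, a replicate block, averaging the probe sets of a gene, all arrays in one fit, a re-implemented SAM with 70 relabellings, leaving out the 4 arrays beyond 0.3 on the first axis, and leaving out each array in turn.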

Additional observations from a re-analysis of the deposited data

Results flagged for a closer look

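In 17 of 246 groups of 4 arrays, 1 array of a member lay so far from the 3 others that its gap to the nearest, as a share of the group's range, exceeded Dixon's critical value. Chance gives about 5% of groups. Vehicle replicate 1 at 6 h accounted for 5 of them, being low in HSPG2 (share 0.902), COL12A1 (0.879) and FBN2 (0.922) and high in GPC1 (0.848) and ITGA5 (0.835). Vehicle replicate 1 at 24 h accounted for another 5, low in LOX (0.876) and ITGB8 (0.9) and high in SPARC (0.88), GPC1 (0.848) and ITGA5 (0.98). 1,25(OH)2D replicate 2 at 48 h was high in COL4A2 (0.833), COL5A2 (0.842), COL12A1 (0.832) and SDC1 (0.916). The others were NID1 in 1,25(OH)2D replicate 3 at 6 h (0.856) and ITGA5 in vehicle replicate 2 (0.903) and 1,25(OH)2D replicate 3 (0.893) at 48 h.

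The effect of 1,25(OH)2D (log2) differed between time points for 4 members. For LAMB3 it was lower at 24 h than at 6 h by a difference of -1.37 and at 48 h by -1.31. For SPARC the same differences were -0.4 and -0.56. OLFML2A differed by -0.89 between 6 and 24 h, and CCDC80 by -3.15 between 6 and 48 h.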

How the results depend on the processing

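At 48 h between 12 and 23 members passed under the alternatives, against 18 with all arrays, the most without 1,25(OH)2D replicate 2, where 18 were shared. At 6 h (3 members) the count was 5 without the arrays that stood apart, in 1 fit of all arrays and by SAM, and 1 to 5 with 1 array left out. At 24 h (5 members) it was 1 with centring, 9 with the offset, 3 with no filter, 21 without the arrays that stood apart, 8 with the mean of probe sets, 10 in 1 fit of all arrays, 16 by SAM, and 0 to 5 with 1 array left out. In vehicle from 24 to 48 h (1 member, GPC4) it was 3 without the arrays that stood apart and 1 with any array left out. With the stricter filter it was 0, but GPC4 did not pass that filter and so was not tested there. In treated cells from 6 to 24 h (13 members) it was 21 without the arrays that stood apart and 6 to 20 with 1 array left out. Effects that differed between 6 and 24 h (3 members) numbered 1 with centring, 5 without the arrays that stood apart and 1 to 4 with 1 array left out, those between 24 and 48 h 0 to 1, and those between 6 and 48 h 3 to 4.

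The labels do not say whether replicate numbers pair the samples, and the study's test was unpaired. Deviations from group means of same-numbered arrays (replicates 1 to 4) correlated at 0.78, -0.39, 0.63 and 0.69 at 6 h. At 24 h the correlations were -0.91, -0.18, 0.39 and -0.77, and at 48 h -0.07, -0.14, -0.06 and 0.02. With the replicate number as a block 0 members passed at 24 h and 1 effect differed between 6 and 24 h, and other counts stayed within 1.5 times.

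No called member changed sign under any alternative run. With 1 array left out 117 of 504 called results fell short of the threshold. At 24 h the count went from 5 to 1 without vehicle replicate 1, 3 or 4, to 0 without vehicle replicate 2, and to 2 without 1,25(OH)2D replicate 2 or 3. At 6 h it went from 3 to 5 without vehicle replicate 1, to 1 without vehicle replicates 2, 3 or 4 or 1,25(OH)2D replicates 1, 2 or 4. FBN2, OLFML2A and ITGB4 at 48 h passed, of these 8 fits, only in the one without 1,25(OH)2D replicate 2. Apart from the missing arrays themselves, the cause of these shifts was not tested.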
